A study of Mus musculus with 3 samples.

Results

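CDK inhibitors and the genes that control p53 were examined in mouse blastocysts from young and aging females. The 10 genes were Cdkn1a, Cdkn1b, Cdkn2a, Cdkn2b, Cdkn2c, Cdkn2d, Trp53, Mdm2, Mdm4 and Rb1, of 23454 genes named on the arrays. They were found through the RefSeq accession of each probe, and all their probes were taken, 18 of 56591. Of these 18 probes, 16 were well above background on all 3 arrays and 2 on none, which were a second probe of Cdkn2a and a second probe of Cdkn2b. The 3 arrays held RNA of ICR embryos that were cultured from zygotes for 96 h and collected as expanded blastocysts, 30 pooled for each array. The young pool was taken from females aged 3 to 6 weeks, without treatment. The aging pool was from females aged 43 to 53 weeks, also without treatment. For the suppressed aging pool the females were again aged 43 to 53 weeks, and the embryos were cultured with anti-CXCL5 neutralizing antibody at 10 μg/ml and a selective CXCR2 antagonist at 10 nM. Each condition was 1 pool on 1 array, so that no difference has a replicate check, no test was made, and age or treatment cannot be told apart from any other difference between the pools.

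CDK inhibitors hold cyclin-dependent kinases back and so keep the retinoblastoma protein RB1 bound to the E2F factors that drive entry into S phase. The INK4 proteins p16, p15, p18 and p19, from Cdkn2a, Cdkn2b, Cdkn2c and Cdkn2d, bind CDK4 and CDK6, whereas the Cip/Kip proteins p21 and p27, from Cdkn1a and Cdkn1b, act on cyclin E and cyclin A complexes as well. p53, from Trp53, switches on Cdkn1a and Mdm2 after DNA damage. MDM2 marks p53 for degradation and MDM4 blocks its activity, which closes a feedback loop, and ARF, a second protein of Cdkn2a, holds MDM2 back. Several of these genes are used as markers of cellular senescence, while cells of the preimplantation embryo divide quickly.

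Levels below are log2 intensities relative to the 75th percentile of the array, at intensities of 144.9, 154.5 and 122.3 for young, aging and suppressed aging. A level of 0 is therefore a probe brighter than most. The scanner software gave each spot an error, about 0.144 on the log2 scale for a bright spot, and a difference is called larger than the measuring error below where it exceeded 2 such errors of the difference. This error covers the reading of a single spot and not the spread between embryos. Each of the 18 probes had 1 spot per array, and levels of different probes were not set against each other.

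Promoter windows show which of these genes carry a p53 motif close to a start site. RefSeq windows of 250 bases before to 50 after the start (GRCm38.p6) were found for 9 of the 10 genes, 13 windows in all. A p53 half-site, searched on both strands, occurred in 4 of these 13 windows, against 8.36% of all 32851 windows. The 32851 windows leave out those of 1 chromosome, here and in the shares below. The stretches with a match are printed for all 4 windows, those of Cdkn1a, Mdm2, Cdkn2d and Trp53. A link between these matches and the differences below was not tested. Half-sites are in capitals.
Cdkn1a: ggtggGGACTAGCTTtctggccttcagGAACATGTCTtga
Mdm2: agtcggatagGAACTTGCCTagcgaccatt
Cdkn2d: ggcctggggcGGGCTTGCCTcgcccactag
Trp53: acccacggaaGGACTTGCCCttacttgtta
The Cdkn1a stretch lies at chr17:29090901-29090940 on the plus strand, in the more upstream of its 2 windows, and holds 2 half-sites. The Mdm2 stretch lies at chr10:117710925-117710954 on the minus strand. The Cdkn2d stretch lies at chr9:21291292-21291321 on the minus strand, and the Trp53 stretch at chr11:69580274-69580303 on the plus strand, each with 1 half-site. An E2F motif (TTTCCCGC, TTTCGCGC, TTTGCCGC or TTTGGCGC, both strands) was found in 1 of the 13 windows, the upstream window of Cdkn2a, against 2.26% of all windows. The Sp1 motif GGGCGG was in 8 of the 13 windows and in 35.7% of all windows, and the CCAAT box in 6 and in 37.4%. A match is a description of the letters, and binding was not measured here.

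**Figure D1:**
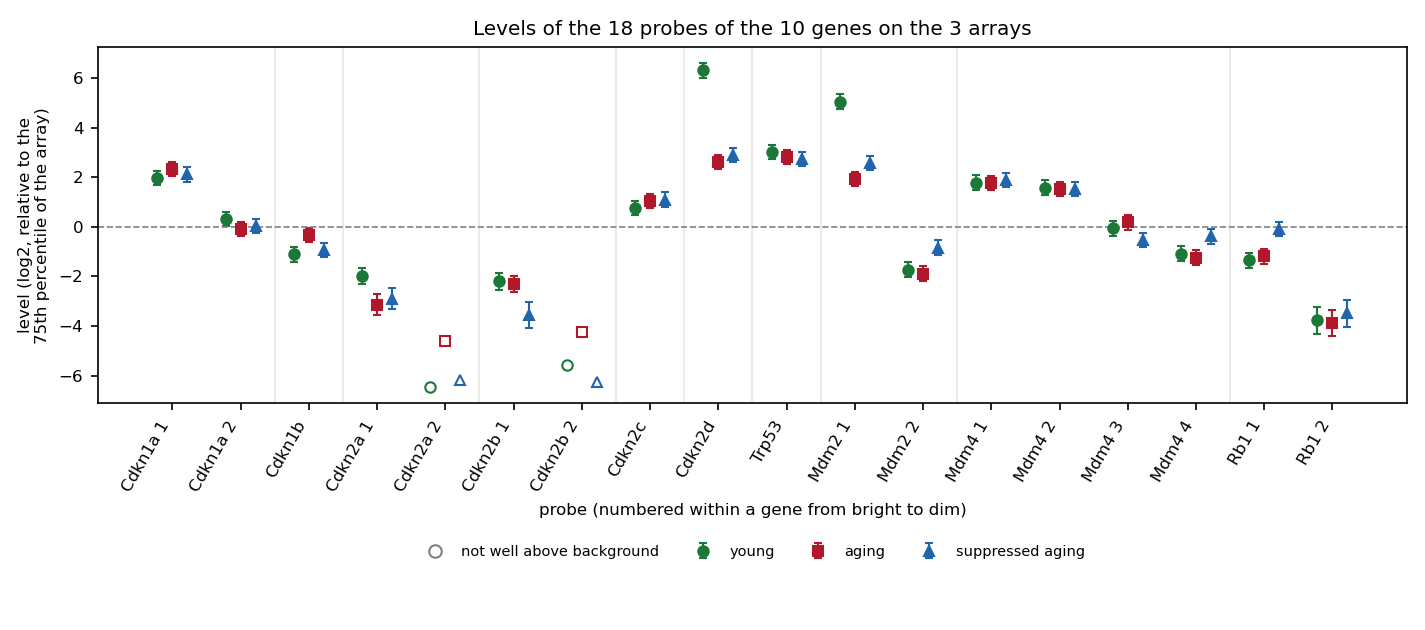
Level (log2 intensity relative to the 75th percentile of the array) of each probe of the 10 genes on the young, aging and suppressed aging array. Bars are 2 errors of the scanner software and open symbols are probes not well above background. Cdkn2d and the brighter Mdm2 probe stand higher on the young array (6.30 and 5.04) than on both arrays of aging females.

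Cdkn2d, which encodes the INK4 inhibitor p19, was the gene with the largest difference. Its level was 6.30 in young, 2.60 in aging and 2.89 in suppressed aging blastocysts, from intensities of 11449, 939.8 and 908.6. The young array stood apart, and the arrays of aging females lay close together. The level in aging was 13.0-fold lower than in young (log2 difference -3.70, error 0.20), the 69th lowest difference of 35758 probes compared. In suppressed aging it was 10.6-fold lower than in young (-3.41), the 77th lowest of 34959. Suppressed aging and aging differed by 0.29, within the measuring error. Cdkn2d has 1 probe on the array, so no second reading of its transcript was at hand. The 62 spots above background within 5 rows and columns of it on the slide had a median difference of 0.08 between aging and young.

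The E3 ligase gene Mdm2 gave 2 unlike readings. Its brighter probe had a level of 5.04 in young, 1.93 in aging and 2.57 in suppressed aging, from intensities of 4779, 587.1 and 726.4. Aging was 8.68-fold lower than young (-3.12, error 0.20) and suppressed aging 5.55-fold lower than young (-2.47). Suppressed aging was 0.64 above aging, larger than the measuring error. The dimmer probe had a level of -1.73 in young, -1.89 in aging and -0.85 in suppressed aging. On it aging differed from young by only -0.16, within the measuring error, whereas suppressed aging was 1.04 above aging and 0.88 above young. Both probes thus read higher in suppressed aging than in aging, but the low level of the aging embryos relative to the young was seen with 1 probe of the 2. The files name the same gene for both probes and do not show which part of the transcript each one reads. The 68 spots around the brighter probe had a median difference of -0.10 between aging and young.

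Among probes with a level above 0 on both arrays, differences this large were uncommon. Of 12907 such probes, 0.341% were over 5-fold lower in aging than in young, and Cdkn2d ranked 6th and Mdm2 13th from the lowest. Of 13055 such probes, 0.26% were over 5-fold lower in suppressed aging than in young, and Cdkn2d ranked 10th and Mdm2 29th.

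**Figure D2:**
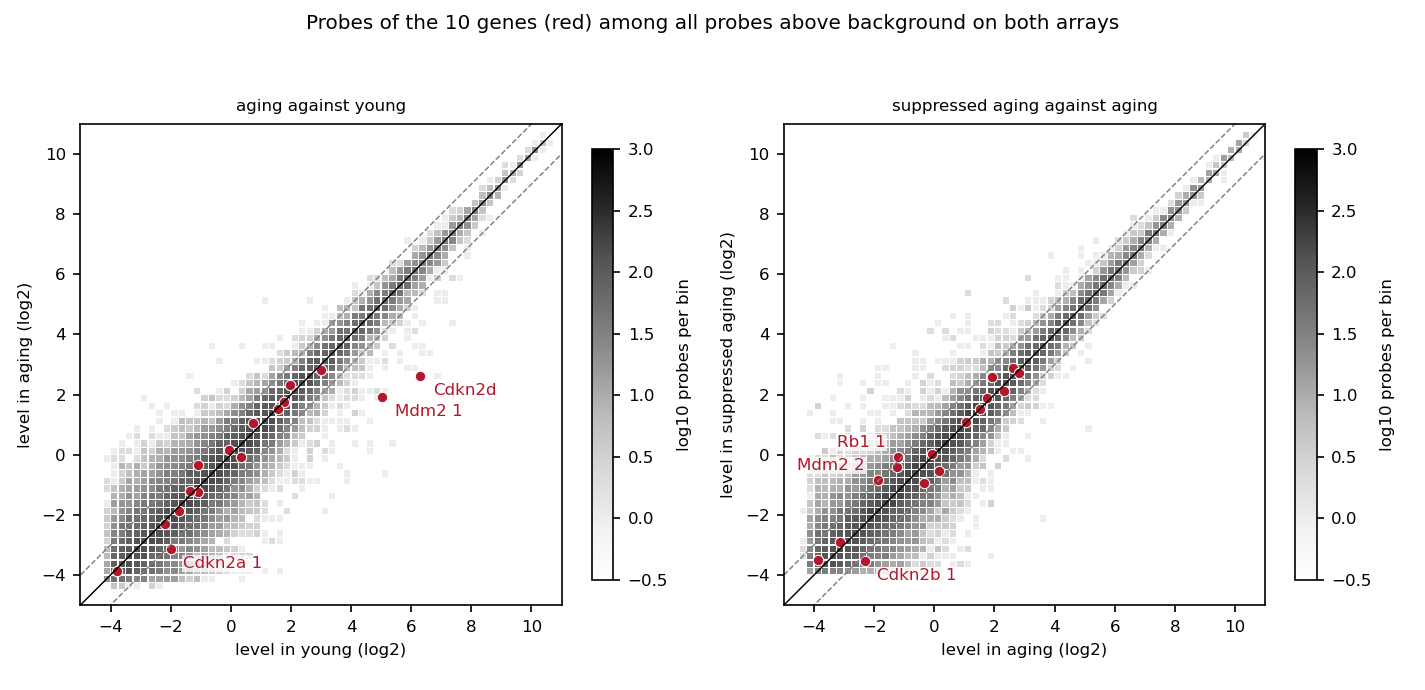
Level of every probe above background on both arrays (log2), in the comparison of aging with young (left) and of suppressed aging with aging (right). Grey squares give the number of probes in bins of 0.25, red points are the probes of the 10 genes, the solid line is equal level and the dashed lines are 2-fold. Cdkn2d and the brighter Mdm2 probe lie well under the cloud on the left, and no red point does so on the right.

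The other INK4 genes showed smaller differences on weaker signals. The Cdkn2a probe that was above background had a level of -2.00 in young, -3.14 in aging and -2.90 in suppressed aging. Aging was 2.20-fold lower than young (-1.14, error 0.26), suppressed aging differed from young by -0.90, and both differences exceeded the measuring error. Suppressed aging and aging differed by 0.24, within it. The gene makes both p16 and ARF, and which product the probe reads is not given in the sources used here. The second Cdkn2a probe was not well above background on any array. After another background correction (normexp), which adds an offset and so draws weak signals together, the difference of aging from young was -0.36.

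Cdkn2b, the p15 gene next to Cdkn2a, stood apart on the suppressed aging array. Its level was -2.20 in young, -2.31 in aging and -3.55 in suppressed aging. Young and aging lay within the measuring error of each other (-0.11). Suppressed aging was 2.36-fold lower than aging (-1.24, error 0.31) and 2.55-fold lower than young (-1.35). With the normexp correction these differences were -0.20 and -0.25. The second Cdkn2b probe was not well above background on any array. Cdkn2c, the p18 gene, had levels of 0.75, 1.05 and 1.09 in young, aging and suppressed aging, and none of its 3 differences exceeded the measuring error.

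The Cip/Kip genes differed by less than 2-fold. Cdkn1a, the p21 gene and the best known p53 target in the cell cycle, had 2 probes that went opposite ways. The brighter one had a level of 1.96 in young, 2.32 in aging and 2.11 in suppressed aging. The dimmer one, which is listed under another transcript accession, had 0.32, -0.09 and 0.04. The difference of aging from young was 0.36 on the first and -0.41 on the second, and neither probe gave a difference beyond the measuring error in any of the 3 comparisons. Cdkn1b, the p27 gene, had a level of -1.11 in young, -0.34 in aging and -0.94 in suppressed aging. The aging array was the high one, 1.70-fold above young (0.77, error 0.21) and 1.51-fold above suppressed aging, both beyond the measuring error. Suppressed aging and young differed by 0.17, within it. With the normexp correction, aging was 0.39 above young and suppressed aging differed from aging by -0.35.

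Trp53 itself varied little. Its level was 3.02 in young, 2.82 in aging and 2.73 in suppressed aging, and the differences of -0.20, -0.09 and -0.28 were all within the measuring error. Mdm4, the p53 antagonist that forms dimers with MDM2, was read by 4 probes. The 2 brighter probes, listed under the same accession, had levels of 1.78, 1.76 and 1.88 and of 1.58, 1.52 and 1.52 in young, aging and suppressed aging, with no difference beyond the measuring error. The 2 dimmer probes, listed under another accession, disagreed after suppression. The first had -0.07 in young, 0.17 in aging and -0.53 in suppressed aging, a difference of -0.70 from aging. The second had -1.09, -1.26 and -0.39, and there suppressed aging was 0.86 higher than aging.

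Rb1, which encodes the pocket protein that CDK4 and CDK6 phosphorylate, was higher in suppressed aging on its brighter probe. The level was -1.35 in young, -1.19 in aging and -0.09 in suppressed aging. Suppressed aging was 2.14-fold above aging (1.10, error 0.21) and 2.40-fold above young (1.26), while aging and young differed by 0.16, within the measuring error. With the normexp correction these differences were 0.71 and 0.81. The dimmer probe had levels of -3.77, -3.87 and -3.49, close to the detection limit of the arrays (-4.20, -4.32 and -3.93), and its differences of 0.38 and 0.28 were within the measuring error.

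**Figure D3:**
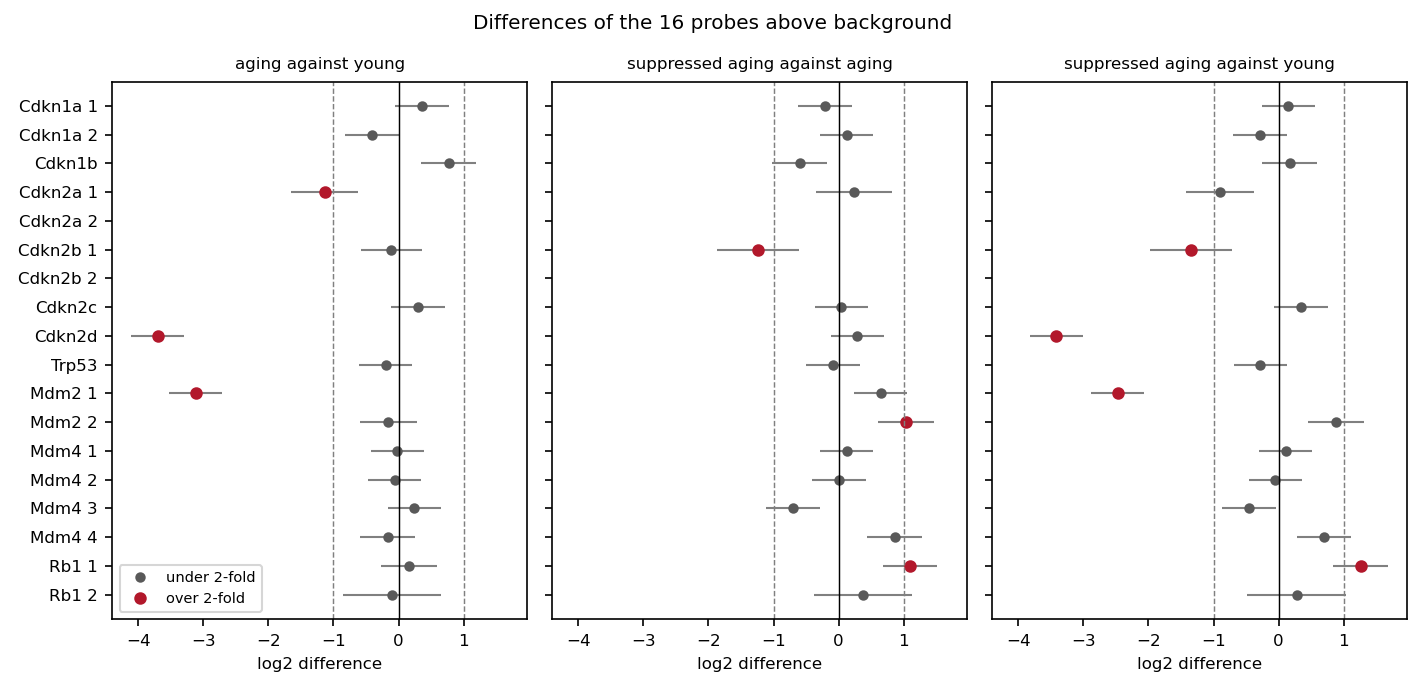
Log2 difference of each of the 16 probes above background in the 3 comparisons, with bars of 2 errors of the difference. Red points differ by over 2-fold (dashed lines). Cdkn2d (-3.70 and -3.41) and the brighter Mdm2 probe (-3.12 and -2.47) stand apart in both comparisons with young.

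Over the 16 probes, 3 were over 2-fold lower and 0 higher in aging than in young, where 11.1% of all probes compared were lower and 9.98% higher. The 2 that were over 5-fold lower stood against 1.6% of all probes, and 0 were over 5-fold higher against 1.4%. In suppressed aging against aging, 2 probes were over 2-fold higher and 1 lower, against 9.86% and 9.1%, and 0 were past 5-fold, where 1.44% of all probes were higher and 1.11% lower. In suppressed aging against young, 1 probe was over 2-fold higher and 3 lower, against 8.88% and 9.19%. Again 2 were over 5-fold lower against 1.28%, and 0 higher against 1.22%. With 16 probes, counts of 1 to 3 are not far from the 2-fold shares. The median difference was -0.11, 0.12 and 0.03 in the 3 comparisons, beside -0.03, 0.02 and -0.00 for all probes, and the median size of difference was 0.22, 0.33 and 0.40 beside 0.46, 0.42 and 0.40. The number of probes beyond the measuring error was 4, 7 and 8 of 16, where 46%, 42.6% and 41% of all probes above background on both arrays were beyond it. The comparisons share arrays, so that a high or low reading on 1 array enters 2 of them. Cdkn2d and the brighter Mdm2 probe are high on the young array alone, and Cdkn2b and the brighter Rb1 probe stand apart on the suppressed aging array alone.

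Genes around these regulators were taken from 10 lists, each gene by the probe with the highest mean level over the 3 arrays. The counts below are of these probes alone. Of the further probes of the same genes, 7 of 81 were over 2-fold higher and 9 lower in aging than in young, 5 and 8 of 80 in suppressed aging against aging, and 2 and 6 of 81 in suppressed aging against young. Of 38 differences of list genes over 2-fold, 23 were under 2-fold with the normexp correction. Over all named genes, 9.86% were over 2-fold higher and 9.19% lower in aging than in young, 8.76% and 8.5% in suppressed aging against aging, and 8.68% and 7.63% in suppressed aging against young. The other CDK inhibitors were Cdkn1c, the imprinted p57 gene, and Cdkn3, a CDK-directed phosphatase. Cdkn1c had a level of -1.48 in young, 1.18 in aging and -0.65 in suppressed aging. It was 2.66 higher in aging than in young, and differed by -1.84 in suppressed aging against aging. Cdkn3 had 2.90, 1.39 and 1.13, and was -1.51 in aging and -1.77 in suppressed aging relative to young. Its second probe read -0.96 and -0.99 for the same differences.

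The cyclins and the kinases that the inhibitors act on came next. Of 15 comparable cyclin and CDK genes, 0 differed over 2-fold between aging and young. The largest differences there were 0.84 for Ccne1 and 0.60 for Cdk1 upwards, and -0.59 for Ccnb1 and -0.58 for Ccnd1 downwards. Further probes of Ccnb1 read -0.63 and 0.50 in this comparison. Ccnd1, the cyclin D1 gene, was the 1 of 13 over 2-fold in suppressed aging against aging (1.10, from a level of -2.95 to -1.85). Cdk4, the partner of D-type cyclins and the target of INK4 proteins, had levels of 5.13, 5.32 and 4.67 in young, aging and suppressed aging, with a difference of -0.65 in suppressed aging against aging. Cdk6, the other INK4 target, was above background on the young array alone, near its detection limit (-3.95), and Ccnd2 on none.

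Among 16 comparable genes of the RB family, the E2F factors and the DREAM complex, 1 was over 2-fold lower in aging than in young, the activator E2f3 (level -0.35 in young, -2.11 in aging and -2.34 in suppressed aging). Both probes of E2f2 also read lower in aging, -0.96 on the probe counted and -1.47 on the other. So did all probes of Rbl1, with -0.38 on the probe counted and -1.03 and -1.20 on the others. Of 9 further probes of the list, 1 was over 2-fold higher in aging than in young and 3 lower. In suppressed aging against aging, E2f2 was 2.17 and E2f5 1.49 higher, and the Rbl1 probes read 0.34, 0.70 and 1.38. Both probes of E2f2 read the suppressed aging embryos higher than the aging ones, by 2.17 and 1.42, but they disagreed relative to young (1.21 and -0.05). E2F factors switch on replication genes, and of 15 such target genes, such as the Mcm helicase subunits, Pcna and Rrm1, 0 were over 2-fold in any of the 3 comparisons. Rrm1, a subunit of ribonucleotide reductase, was the lowest in aging against young (-0.94) and the highest in suppressed aging against aging (0.86). Mybl2 was the highest in aging against young (0.58). A second probe of Tk1, a thymidine kinase gene, had a level of 4.66 in young, 3.36 in aging and 3.18 in suppressed aging, which were differences of -1.30 and -1.47 from young, while the probe counted read -0.09 and 0.40.

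**Figure D4:**
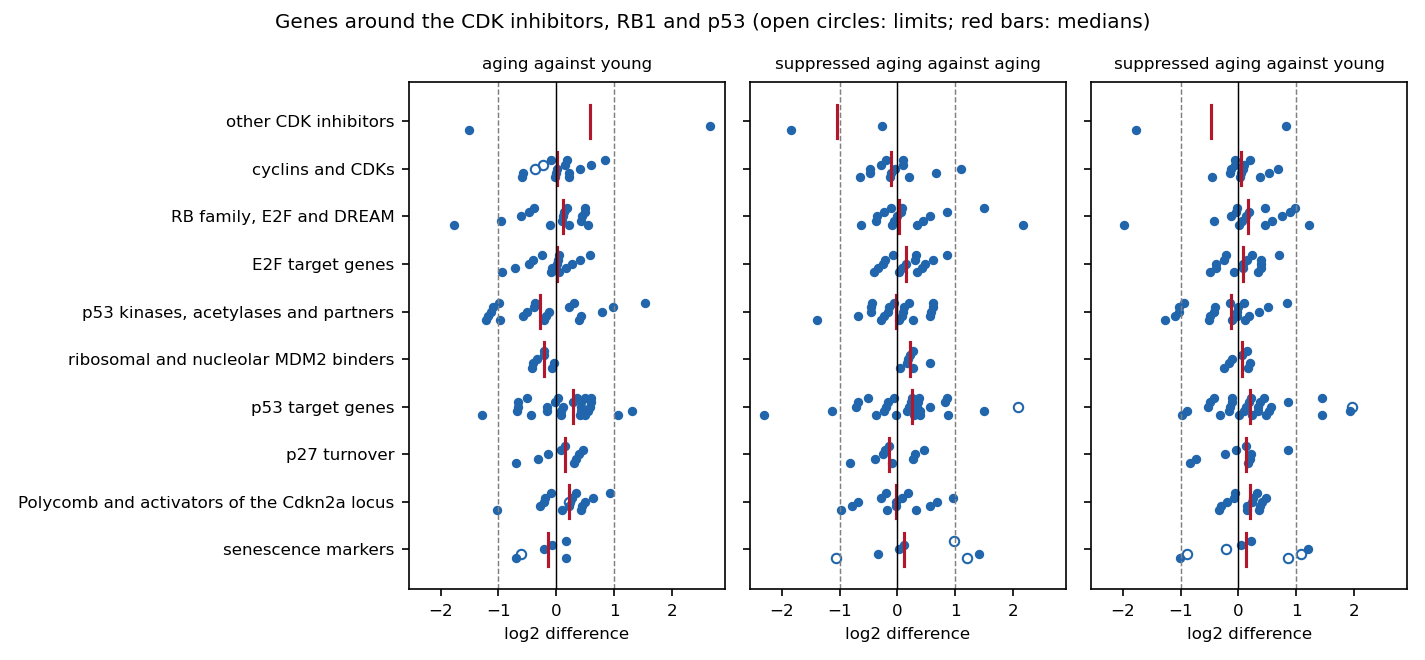
Log2 differences of the genes in 10 lists around the CDK inhibitors, RB1 and p53, each gene by its brightest probe, in the 3 comparisons. Red bars are list medians, open circles are limits for genes above background on 1 of the arrays only, and dashed lines are 2-fold. Points of the E2F target genes all lie within the dashed lines, and single genes such as Cdkn1c lie outside.

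Upstream of p53, 20 genes of kinases, acetylases and partners were comparable. In aging against young 1 was over 2-fold higher, the checkpoint kinase gene Atr (1.53), and 4 were lower, among them Trp53bp1 (-1.22), which binds p53 and chromatin at DNA breaks, and Rchy1 (-1.18), a p53 ubiquitin ligase. The list median was -0.29. The 4 probes of Trp53bp1 ranged from -1.22 to 1.53 in this comparison, and 2 probes of Atm, the kinase of double-strand breaks, read -1.10 and 0.06. Both probes of the kinase gene Chek1 were lower in aging (-1.12 and -0.59). In suppressed aging against aging 1 of the 20 was over 2-fold lower, the p53 inhibitor gene Ppp1r13l (-1.40, and -0.25 with normexp), and in suppressed aging against young 4 were lower, with Atm at -1.26 and Rchy1 at -1.09. The second Atm probe read 0.44 there.

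The ribosomal and nucleolar proteins that bind MDM2 differed little, with 0 of 7 over 2-fold in any comparison. On the probes counted, all 7 read below young in aging, with a median of -0.21, and above aging in suppressed aging, with a median of 0.21. Rpl5 (-0.42) and Npm1 (-0.40) were the lowest in aging, and Npm1 (0.56) and Ncl (0.27) the highest in suppressed aging against aging. Further probes did not all follow. The second Ncl probe read 0.87 in aging against young and -0.87 in suppressed aging against aging. The other 2 Npm1 probes read 0.08 and -0.78 in the first comparison and -0.16 and 0.59 in the second. The smallest of these differences, 0.04 in size, are under the shift of 0.09 between ways of scaling the arrays.

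Target genes of p53 other than Cdkn1a and Mdm2 differed in both directions. Of 27 comparable targets, 2 were over 2-fold higher and 1 lower in aging than in young, with a median of 0.28. The higher ones were Pidd1 (1.32), which encodes a death domain protein, and Xpc (1.06), a sensor of DNA lesions, and the lower one was the translesion polymerase gene Polk (-1.29). Both probes of Pidd1 were higher in aging (1.32 and 1.30), while the second probe of Xpc read -0.24. Further probes of Polk read -1.07 and 0.16. A second probe of Apaf1 read 2.28 in aging against young and -1.48 in suppressed aging against aging. The Apaf1 probe counted read 0.51 and 0.35. Of 15 further probes of the targets, 2 were over 2-fold higher and 2 lower in aging than in young. In suppressed aging against aging, 2 of 28 targets were over 2-fold higher and 2 lower, with a median of 0.25. Gadd45a, a stress-induced growth arrest gene, had a level of -2.26 in young, -1.84 in aging and -0.34 in suppressed aging, which was 2.82-fold above aging and 3.79-fold above young. The lowest of 6 alternatives in processing gave log2 differences of 0.77 and 0.91 for Gadd45a, under 2-fold. Dram1, an autophagy regulator, was not well above background in young or aging and reached -2.24 in suppressed aging, at least 4.23-fold above aging. Pidd1 was -2.30 in suppressed aging against aging on its brighter probe but -0.26 on the other. Ddb2, a repair gene, was -1.12 on its brighter probe and -0.80 on the other. In suppressed aging against young 4 of 28 were over 2-fold higher and 0 lower, with a median of 0.19, and they were Gadd45a, Xpc (1.45), Perp (1.44) and Dram1. The second Xpc probe was below background in suppressed aging, with a limit of -1.62 relative to young, opposite to the first. With normexp, Xpc read 0.07 in aging against young and 0.39 in suppressed aging against young, and Dram1 0.70 in suppressed aging against aging. A second probe of Ei24 was 2.39 above aging and 2.36 above young, where the probe counted read -0.72 and -0.16.

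For p27, whose protein is largely set by degradation, 0 of 9 genes of its turnover were over 2-fold in any comparison. Skp2, the F-box protein that targets p27, had levels of 1.76, 1.07 and 0.92 in young, aging and suppressed aging (-0.69 and -0.83 relative to young). A second probe of Fbxw7, the F-box gene for cyclin E, read -1.60 in aging against young and 1.03 in suppressed aging against aging, while the probe counted read 0.40 and 0.46. Among 15 Polycomb genes and other regulators of the Cdkn2a locus, 1 was over 2-fold lower in aging than in young, Ets2 (-1.03), and 0 of 14 were over 2-fold in the other comparisons. Ezh2, the Polycomb methyltransferase that keeps the locus silent, differed by -0.28 between aging and young and by -0.31 between suppressed aging and young. Of the senescence markers, 0 of 6 were over 2-fold between aging and young. A second probe of Glb1, the gene of senescence-associated beta-galactosidase, read -1.27 in this comparison, while the probe counted read 0.17. In suppressed aging, Il6, a cytokine of senescent cells, was 1.41 above aging and 1.20 above young, and Lmnb1, the lamin B1 gene, was -1.02 relative to young. For Il6 the lowest of 6 alternatives in processing gave 0.60 and 0.50, under 2-fold. The second Il6 probe was not well above background on any array. Cxcr2, the receptor gene, was well above background on the suppressed aging array alone, at least 2.30-fold above aging, and the chemokine gene Cxcl2 was below background there, at least 2.08-fold under aging. With these limits, 2 of 7 markers were over 2-fold higher and 1 lower in suppressed aging than in aging. With normexp, Cxcr2 read 0.46 and Cxcl2 -0.03 in this comparison. Cxcl5, the gene of the chemokine that the antibody targets, was well above background on the young array alone (level -3.71). Its limits relative to young were -0.61 in aging and -0.22 in suppressed aging. By quantitative RT-PCR with replicates, the study reported more Cxcl5 transcript in aging than in young mouse blastocysts. It also reported higher transcripts of p16, p21, p53 and Il6 there. The single arrays used here do not show these rises beyond the measuring error, and the 2 methods were not compared further.

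The cell types of the pools were compared beside these values. All 8 trophectoderm, 7 inner cell mass and 5 primitive endoderm markers were above background on every array. Their summed scaled intensities in young, aging and suppressed aging were 504, 382 and 449 for trophectoderm, 1044, 1255 and 1167 for inner cell mass, and 17.8, 21.0 and 16.4 for primitive endoderm. The inner cell mass sum was mostly Nanog, with levels of 9.88, 10.14 and 10.03. In aging against young, on the brightest probe of each gene, 6 trophectoderm markers read lower and 2 higher, with Tfap2c at -1.16 and Elf5 at 0.91. The second Tfap2c probe read 0.08. Inner cell mass markers were 6 higher and 1 lower. Primitive endoderm markers were 3 higher and 2 lower, with Pdgfra at 1.28 and Sox17 at -1.53. A second Pdgfra probe gave a limit of 0.24, and the second Sox17 probe read 0.33. Of 9 cumulus and granulosa genes 4 were above background on each array (sum 406, 374 and 439). The sum was nearly all Foxl2, with levels of 8.66, 8.54 and 8.77, while Amh, Cyp19a1 and Star were at -1.01 or lower, and Fshr, Has2, Tnfaip6, Ptx3 and Inhba were on none. Maternal oocyte transcripts summed to 0.71, 1.90 and 0.74, with 4, 5 and 3 of 8 above background and Zp1, Oosp1 and Mos on none, and blood genes to 0.95, 1.58 and 0.50, with 2, 2 and 1 of 4 above background. The maternal genes did not move alike in aging against young. Zp2 (2.35), Zp3 (2.08) and Bmp15 (a limit of 2.95) were higher, while Gdf9 (-0.06) and Nlrp5 (-0.30) were not. The inner cell mass, primitive endoderm, maternal and blood sums, like the Cdkn1b and Cdkn1c levels, were all highest on the aging array. The part of these cell types and transcripts in the Cdkn1b and Cdkn1c differences was not tested. The blood sum was mostly Hba-a1 (0.91 in aging against young), and Alas2 read -0.77 there, with Hbb-bt and Ptprc on none. Housekeeping genes summed to 1429, 1423 and 1429. In pools, fewer cells of a type and less RNA per cell cannot be told apart.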

How the data were processed

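RNA of 1 pool of 30 mouse blastocysts per condition was read on an Agilent array with 1 dye (Cy3), all 3 arrays on 1 slide. The study's methods describe a global single-primer PCR, the labels a cRNA labelling kit, so the amplification is not settled. The authors deposited spot intensities as given by Agilent Feature Extraction 12.0.3.1, background-subtracted and not normalized between arrays. Their table of processed values, a linear intensity scaled per array, was used as an alternative. Here, control and outlier spots were left out, spots of a probe were averaged on the log2 scale, and levels were set relative to the 75th percentile of their array. A probe counted as detected where it was well above background, and a probe detected on 1 of the arrays compared gave a limit. Of 56591 probes, 33060, 33209 and 31892 were detected on the young, aging and suppressed aging array. Median SDs of 300 probes spotted 10 times were 0.06, 0.05 and 0.05 (log2). Genes were named through RefSeq accessions (GRCm38.p6 table). The array gives no position for its probes and was designed on another build, so no probe coordinates are given.

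All 10 genes are named with all probes, and for each list and comparison up to the 2 largest rises and 2 largest falls among genes detected on both arrays. Chek1, Perp, Cdk4, Cdk6, Ccnd2, Skp2, Ezh2, Dram1, Cxcr2, Cxcl2, Cxcl5, Bmp15, Tk1, Ei24, Fbxw7, Glb1, Il6, Ccnb1, Rbl1, Apaf1 and Polk (or a further probe of them) were named outside this rule in places, after their values were seen. The counts of further probes, and the shares beyond the measuring error, were added after seeing the data. The genes and lists were chosen with earlier results of these data known. Fold limits of 2 and 5 were descriptive. The calculation of differences and limits was tested on a copy of the young array with added noise and large known changes. The processing alternatives, the gene lists and the promoter search were not part of that test. Tools were R 4.3.3 with limma 3.58.1 (normexp, offset 50, and quantile normalization), Python 3.11.15, NumPy 2.4.6, pandas 2.3.3 and Matplotlib 3.10.9. Other alternatives were 2 centrings, outlier spots kept, no or a stricter filter on dim probes, and the brightest probe per gene.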

Additional observations from a re-analysis of the deposited data

How the results depend on the processing

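The count of probes over 2-fold was 3 in aging against young, 3 in suppressed aging against aging and 4 in suppressed aging against young. Without a filter on dim probes it was 5 and 5 in the first and second comparisons, because the 2 probes below background on all arrays entered. With normexp correction it was 0 in suppressed aging against aging and 2 in suppressed aging against young, and at 5-fold it was 0 and 2. The other alternatives gave counts within 1.5 times of these, and list medians differed by less than the measuring error, although the median of suppressed aging against young changed sign. Of 288 values of single probes under 6 alternatives, 275 differed from the value reported by less than the error of the difference and 13 by more, all 13 under normexp. Cdkn2d ranged from -3.71 to -3.59 and the brighter Mdm2 probe from -3.13 to -2.92 in aging against young, and from -3.47 to -3.28 and from -2.52 to -2.42 in suppressed aging against young. The dimmer Mdm2 probe was over 2-fold in suppressed aging against aging in 3 of 6 alternatives (0.49 with normexp). Among the gene lists, 16 of 180 counts differed by more than 1.5 times, most of them under normexp. No result changed sign among those over 2-fold. No paired analysis was possible because there is a single array of each condition, and leaving out a replicate was not possible either. Of 38 list gene differences over 2-fold, 23 were under it with normexp. Weak signals limit the values of Cdkn2a, Cdkn2b and such list genes.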
